A study of Daphnia magna with 15 samples.

Results

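The comparison described here is the supply of eicosapentaenoic acid (EPA) to *Daphnia magna* that were fed a green alga. It rests on 6 RNA-seq libraries of 15 in the series, 3 labelled GA + EPA and 3 labelled GA, chosen by their treatment label alone and described across every gene that the files list. All 15 libraries came from whole water fleas of the single clone P132.85. The animals were parthenogenetic daughters, raised at 15 °C from birth until their own first eggs lay in the brood pouch. The other 9 libraries belong to the groups CY (fed the cyanobacterium *Synechococcus elongatus*), CY + EPA and CRY (fed *Cryptomonas*, an alga that itself holds EPA), 3 each. GA stands for the green alga *Acutodesmus obliquus* as the only basal food, and GA + EPA for the same food with EPA given in liposomes. The labels call the control GA, whereas the study's methods describe the sequenced control as alga with empty liposomes (GA + C), so the exact control diet is uncertain. The pool behind each library is given as 3 animals in one label and as 5 in the extraction protocol, and pools were taken for sequencing with growth rates known. RNA of the mother and of her eggs was not separated. In such samples, fewer cells of a type and less RNA per cell cannot be told apart.

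EPA is a long-chain omega-3 polyunsaturated fatty acid that *Daphnia* take up with their food, and that, per the study's methods, this alga does not supply. It enters membrane lipids and is a precursor of eicosanoids, the signalling lipids that animals make from such fatty acids. Much of the lipid of a mature female goes into her eggs. Vitellogenins, the large lipid transfer proteins that become yolk, carry it there, and related lipoproteins and the microsomal triglyceride transfer protein share their amino-terminal lipid-binding region. In *D. magna*, vitellogenin is known as a fusion with a superoxide dismutase domain, and the product names in the files give it so.

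The 6 libraries held between 18649441 and 22037993 expected counts (read pairs that the RSEM program assigned to genes). Levels are given below as CPM, counts relative to library size after TMM scaling, a correction for unequal library composition. The 10 most abundant genes took 12.4 to 12.5% of the counts in GA and 13.5 to 16.6% in GA + EPA. GA + EPA replicate 1 stood apart from the other 5. It lay at -54.0 on the first principal component, which held 59.9% of the variance, while GA + EPA replicates 2 and 3 lay at -11.0 and 8.61 and the GA libraries between 15.8 and 21.8. Its root mean square log2 difference from any other library was 0.505 to 0.647, against 0.240 to 0.263 among the GA libraries.

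Gut enzyme transcripts were low in that library. Trypsins, chymotrypsins and other serine proteases, which digest protein, summed to 16340, 16042 and 17367 CPM in GA and to 7647, 16961 and 21109 CPM in GA + EPA. The sums of the other digestive peptidases were 17769 to 18043 CPM in GA and 7713, 16276 and 20230 CPM in GA + EPA, and those of the glycoside hydrolases 5616 to 5900 CPM and 2721, 5047 and 6683 CPM. In each of these lists GA + EPA replicate 1 was the lowest of the 6 libraries and GA + EPA replicate 3 the highest. Their part in the results was not tested. Counts below are therefore also given without GA + EPA replicate 1.

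**Figure D1:**
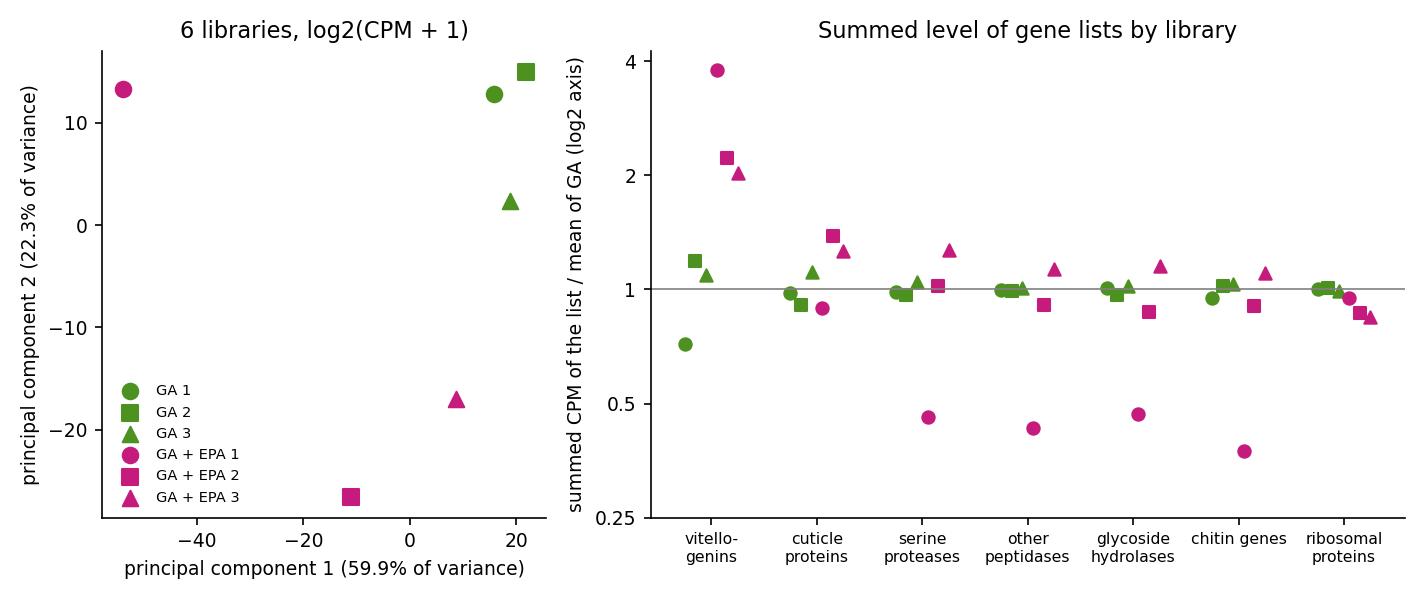
Left: the 6 libraries on the first 2 principal components of log2(CPM + 1), with 59.9% and 22.3% of the variance. Right: summed CPM of 7 gene lists in each library, divided by the GA mean, on a log2 axis. GA + EPA replicate 1 lay at -54.0 on component 1 and had the lowest sums of the 3 digestive lists and of the chitin genes, while all 3 GA + EPA libraries lay above GA for vitellogenins and below it for ribosomal proteins.

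No gene was called in GA + EPA against GA by edgeR's quasi-likelihood test at an adjusted *p* of at most 0.01 (0.00% of 14353 genes tested). The smallest adjusted *p* in edgeR was 0.0834, and 68 genes, 50 higher and 18 lower with EPA, lay at or under 0.10. At an unadjusted *p* of at most 0.01 there were 929 genes (6.47%), where evenly spread *p* values would give 144. The adjusted *p* at that rank was 0.154. Such genes are described below as nominally higher or lower, and none of them is called. DESeq2, run on the same counts, called 356 genes (2.48%), 272 higher (1.90%) and 84 lower (0.586%). The 2 tools therefore differed over whether any gene passed.

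Of the 929 genes, 672 were higher with EPA (4.68% of those tested) and 257 lower (1.79%). The median log2 fold change was 0.54 among the former and -0.64 among the latter, with at least a 2-fold difference in 158 and 53 genes and at least a 4-fold difference in 47 and 12. Every GA + EPA library lay above every GA library in 670 of the 672 and below in all 257 (15.0% and 13.2% of all genes tested did so). These genes were picked by their *p* in the same libraries. That choice by itself favours separate groups, and a kept direction when a library is left out. Without GA + EPA replicate 1, each of the 929 kept its direction, and 575 and 191 of them were still nominally higher and lower. That smaller fit gave 837 genes higher (5.73%) and 545 lower (3.73%). It called 1 gene (0.00684%), KZS05160.1, a facilitated glucose transporter, with 34.0, 31.4 and 26.9 CPM in GA and 30.1, 8.49 and 7.82 CPM in GA + EPA. The high GA + EPA value is replicate 1, and this gene was picked out after its values were seen. Leaving out GA + EPA replicate 3 gave 869 higher and 436 lower genes, and leaving out GA + EPA replicate 2 gave 344 and 126. Without GA replicate 1, 2 or 3, respectively, 345, 308 and 378 genes were higher and 100, 93 and 144 lower.

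The yolk genes were the most uniform group. All 13 gene models named vitellogenin fused with superoxide dismutase were higher with EPA, with log2 fold changes from 1.18 to 2.42 and a median of 1.41, where the median over all tested genes was 0.00. The groups did not overlap in any of the 13 (15.0% of all tested genes were apart in this direction). Their summed level was 9068, 14935 and 13785 CPM in GA and 47798, 27983 and 25566 CPM in GA + EPA, a ratio of means of 2.68. GA + EPA replicate 1 was the highest library and GA replicate 1 the lowest. Without GA + EPA replicate 1 the ratio was 2.13, the median log2 fold change 1.09, and all 13 were still nominally higher. DESeq2 called 13 of 13 (1.90% of all genes were called higher).

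The vitellogenin models fell into a set with larger and a set with smaller differences. KZS03198.1 had 210, 445 and 457 CPM in GA and 3327, 1297 and 1247 CPM in GA + EPA, a log2 fold change of 2.4 ± 0.49 (SE). KZS00546.1 had 7.43, 17.3 and 18.4 CPM in GA and 127, 57.7 and 46.5 CPM in GA + EPA (2.42 ± 0.49). Together with KZS00271.1 (2.32 ± 0.57), KZS00833.1 (2.30 ± 0.50) and KZR96813.1 (2.26 ± 0.48), they made up the 5 models above 2. The other 8 lay between 1.18 and 1.47. Without GA + EPA replicate 1 no model was above 2. KZS00546.1 was then the highest at 1.86, with KZS03198.1 at 1.78, and the other 8 lay between 0.93 and 1.10. Among them, KZS01801.1 had 2733, 4388 and 4006 CPM in GA and 11862, 7683 and 7044 CPM in GA + EPA (1.26 ± 0.26), and KZR99965.1 had 1887, 2916 and 2468 against 7695, 4739 and 4874 CPM (1.25 ± 0.25). In all of these, even the lowest GA + EPA library was above the highest GA library.

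Both kinds occurred side by side. In the *D. magna* reference assembly, version 2.4, KZS03198.1 lies on scaffold LRGB01003325.1 from 54818 to 61798 on the minus strand, and KZS03199.1 on the same scaffold from 64441 to 70034 on the plus strand. KZS03199.1 had 1315, 2144 and 1919 CPM in GA and 6299, 3729 and 3464 CPM in GA + EPA, a log2 fold change of 1.33 ± 0.29. The 13 models lie on 12 scaffolds, 9 of them begin at the first base of a scaffold, and 8 hold counts shared with other genes. Some may therefore be pieces of the same genes, and the 13 are not 13 independent measurements.

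**Figure D2:**
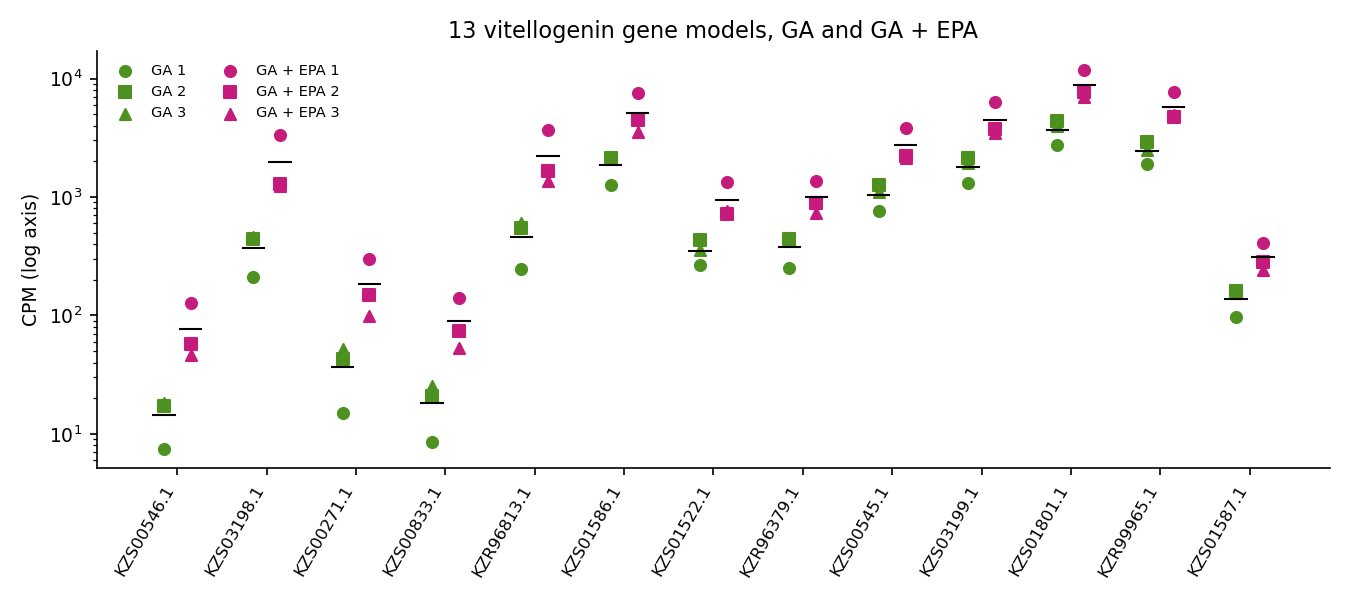
CPM (log axis) of the 13 vitellogenin gene models in the 3 GA and the 3 GA + EPA libraries, with a line at each group mean. In each model all GA + EPA points lie above all GA points, GA + EPA replicate 1 is the highest and GA replicate 1 the lowest.

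A wider set of large lipid transfer genes showed the same direction. The artNOG annotation (orthologous groups of arthropods) describes 51 genes as vitellogenin or as lipoprotein amino-terminal region, a list put together after values had been seen. Of the 50 tested, 31 were nominally higher with EPA (62%) and none lower, against 4.68% and 1.79% over all tested genes. The median log2 fold change was 0.55. Apart from the 13 models above, 37 were tested, 18 were nominally higher, and the median was 0.46. Their summed level was 32807, 37174 and 36046 CPM in GA and 49056, 49830 and 50532 CPM in GA + EPA, so that the groups did not overlap and GA + EPA replicate 1 lay close to replicates 2 and 3. Without that library, 28 of the 37 were nominally higher and 1 lower (5.73% and 3.73% over all genes of that fit). On all 6 libraries DESeq2 called 11 (1.90% of all genes were called higher).

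KZS06241.1, listed as uncharacterized and assigned to the lipoprotein amino-terminal region, had 11348, 11645 and 12440 CPM in GA and 15684, 17449 and 17451 CPM in GA + EPA (log2 fold change 0.51 ± 0.10). KZS21037.1, also uncharacterized by name, had 292, 496 and 438 against 729, 917 and 915 CPM (1.06 ± 0.21). The neighbours KZS21011.1 and KZS21012.1, which the study's methods refer to as vitellogenins, had 32.5, 30.3 and 28.8 against 44.9, 54.7 and 54.9 CPM and 61.4, 71.3 and 75.7 against 107, 118 and 106 CPM. Their log2 fold changes were 0.75 ± 0.10 and 0.67 ± 0.10. Another accession of that kind, KZS06496.1, had 8.81, 10.3 and 10.6 CPM in GA and 16.3, 17.8 and 15.3 CPM in GA + EPA (0.73 ± 0.11). The microsomal triglyceride transfer protein KZS04667.1, which loads lipid onto such carriers, had 190, 195 and 198 against 283, 273 and 240 CPM (0.45 ± 0.08). In none of these 6 genes did the groups overlap.

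Not every list of this kind went the same way. Of 5 tested apolipoprotein and vitelline layer genes by product name, none was nominally higher or lower and 1 had a log2 fold change above 0. Their median was -0.56. Without GA + EPA replicate 1 it was -0.20, and 1 of these genes was nominally higher. Lipoprotein uptake receptors also showed little of the rise. Of 16 tested members, 1 was nominally higher (6.25%) and none lower, against 4.68% and 1.79% over all tested genes. The low-density lipoprotein receptor-related gene KZS04260.1 had 46.9, 45.6 and 46.0 CPM in GA and 65.0, 61.9 and 58.7 CPM in GA + EPA, a log2 fold change of 0.42 ± 0.07. The adjusted *p* of this gene was 0.0973 in edgeR.

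Among the other lipid lists, genes that activate or bind fatty acids had the largest nominal share. Of 27 tested members 5 were nominally higher (18.5%) and none lower, against 4.68% and 1.79% over all tested genes. Acyl-CoA-binding proteins carry activated fatty acids inside the cell, and long-chain fatty acid CoA ligases activate them for lipid synthesis or breakdown. The acyl-CoA-binding domain gene KZS11136.1 had 79.9, 83.6 and 104 CPM in GA and 139, 176 and 145 CPM in GA + EPA (log2 fold change 0.79 ± 0.14). The ligase KZS19371.1 had 96.4, 83.4 and 94.9 against 142, 163 and 126 CPM (0.65 ± 0.11). A pair of short ligase models, KZS01729.1 and KZS01728.1, stood at 0.74 ± 0.13 and 0.59 ± 0.12. KZS06116.1, named for a glycoprotein that binds retinoids and fatty acids, was the most abundant member with 3795, 3550 and 3654 CPM in GA and 7000, 6306 and 4841 CPM in GA + EPA (0.72 ± 0.15). The groups were separate in all 5 genes. DESeq2 called these 5 (1.90% of all genes were called higher). Without GA + EPA replicate 1 the list had 6 nominally higher members and 1 lower (5.73% and 3.73% over all genes of that fit).

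Single genes of lipid synthesis and release were also higher. The fatty acid elongase 6 gene KZS16038.1, an enzyme that lengthens fatty acid chains, had 159, 152 and 167 CPM in GA and 240, 239 and 209 CPM in GA + EPA (0.52 ± 0.08), the only one of 15 tested genes of fatty acid synthesis, elongation and desaturation to reach the nominal threshold. Glycerol-3-phosphate acyltransferase 3 (KZS11164.1), which starts the making of triglycerides and phospholipids, had 178, 174 and 196 against 237, 248 and 235 CPM (0.39 ± 0.08). Hormone-sensitive lipase (KZS20711.1), which frees fatty acids from stores, had 31.6, 27.4 and 30.2 against 41.7, 41.4 and 37.9 CPM (0.44 ± 0.08). Each of the 3 had separate groups. A phospholipase B-like gene (KZS16891.1, 0.56 ± 0.12) and a methylsterol monooxygenase of sterol synthesis (KZS16626.1, 0.76 ± 0.16) were also nominally higher.

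Other lipid enzymes were nominally lower. The sphingomyelin phosphodiesterase gene KZS05668.1, whose product splits a membrane sphingolipid, had 15.5, 11.4 and 13.1 CPM in GA and 7.12, 5.84 and 7.99 CPM in GA + EPA (-0.93 ± 0.17), and its neighbour KZS05667.1 stood at -0.55 ± 0.15. A pancreatic lipase-related gene (KZS04450.1) had 23.8, 31 and 22.8 against 13.3, 9.45 and 16.0 CPM (-1.0 ± 0.21). The 7-dehydrocholesterol reductase gene KZS00973.1 (-0.50 ± 0.09), the phosphatidate phosphatase gene KZS12197.1 (-0.43 ± 0.11) and a patatin-like phospholipase gene (KZS03406.1, -0.36 ± 0.08) were lower too. Of 65 tested lipases and phospholipases, 3 were nominally higher (4.62%) and 2 lower (3.08%). In glycerolipid synthesis 2 of 25 were higher (8%) and 2 lower (8%). In sterol and sphingolipid handling 1 of 57 was higher (1.75%) and 3 lower (5.26%). The shares over all tested genes were 4.68% higher and 1.79% lower.

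Fatty acid breakdown and eicosanoid synthesis had no nominal member. None of 27 tested genes of fatty acid oxidation was nominally higher or lower (median log2 fold change -0.07), nor any of 25 of the eicosanoid pathway (-0.24) or of 28 cytochromes P450 (-0.16). The eicosanoid list summed to 2006, 2036 and 1963 CPM in GA and to 1024, 1684 and 2029 CPM in GA + EPA, so that the groups overlapped and the low value was again replicate 1. The P450 list summed to 1677, 1786 and 1839 against 849, 1386 and 1565 CPM, with separate groups. Fatty acid oxidation summed to 2328, 2327 and 2389 against 1914, 2222 and 2305 CPM, also with separate groups. Every GA + EPA library lay below every GA library in 5 oxidation, 9 eicosanoid and 8 P450 genes. In 0, 2 and 1 genes every GA + EPA library lay above (13.2% below and 15.0% above over all tested genes). Without GA + EPA replicate 1, 3 eicosanoid genes were nominally lower, and of the P450 genes 5 were lower and 1 higher. Over all genes of that fit 3.73% were lower and 5.73% higher. KZS18357.1, a brain-type fatty acid-binding protein that the study's methods single out, had 5.88, 7.5 and 7.01 CPM in GA and 6.52, 6.51 and 5.64 CPM in GA + EPA, with overlapping groups (-0.13 ± 0.14). A gene inducible by juvenile hormone named in the same place, KZS09289.1, also overlapped, at 0.24 ± 0.12.

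**Figure D3:**
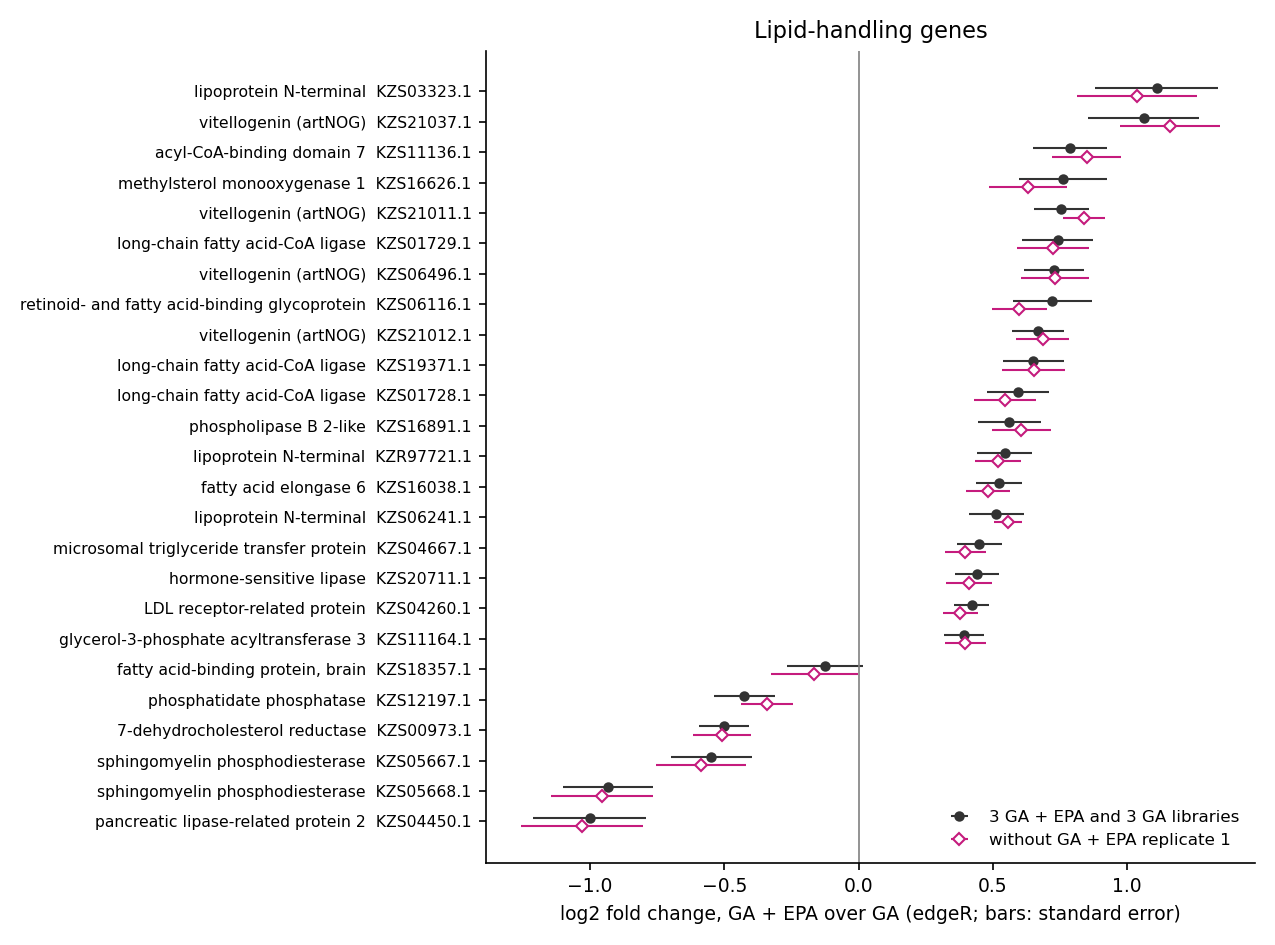
Log2 fold change of GA + EPA over GA (edgeR, with its standard error) for 25 lipid-handling genes, from all 6 libraries and without GA + EPA replicate 1. Carriers, ligases and the elongase lie above 0 and sphingomyelin phosphodiesterases and a pancreatic lipase-related gene below, and no point crosses 0 when the replicate is left out. Most of these genes were picked by their unadjusted *p* in the same libraries.

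By artNOG function category, lipid transport and metabolism (I) had the largest nominal share among categories with at least 10 tested genes, with 51 of 377 genes higher (13.5%) and 3 lower. The large lipid transfer genes made up 31 of the 51, and outside them 20 of 327 were higher (6.12%). Extracellular genes (W) had 7 of 85 higher (8.24%) and 4 lower, and chromatin (B) 13 of 162 higher (8.02%) and 3 lower. In cell cycle control (D) 17 of 222 genes were higher (7.66%) and 1 lower, and in RNA processing (A) 27 of 363 (7.44%) and 2. Over all tested genes 4.68% were higher and 1.79% lower. Translation (J) had 5 higher and 3 lower of 375. Without GA + EPA replicate 1 it had 8 and 53 (5.73% and 3.73% over all genes of that fit). Amino acid metabolism (E) was even, with 16 higher and 16 lower of 418.

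**Figure D4:**
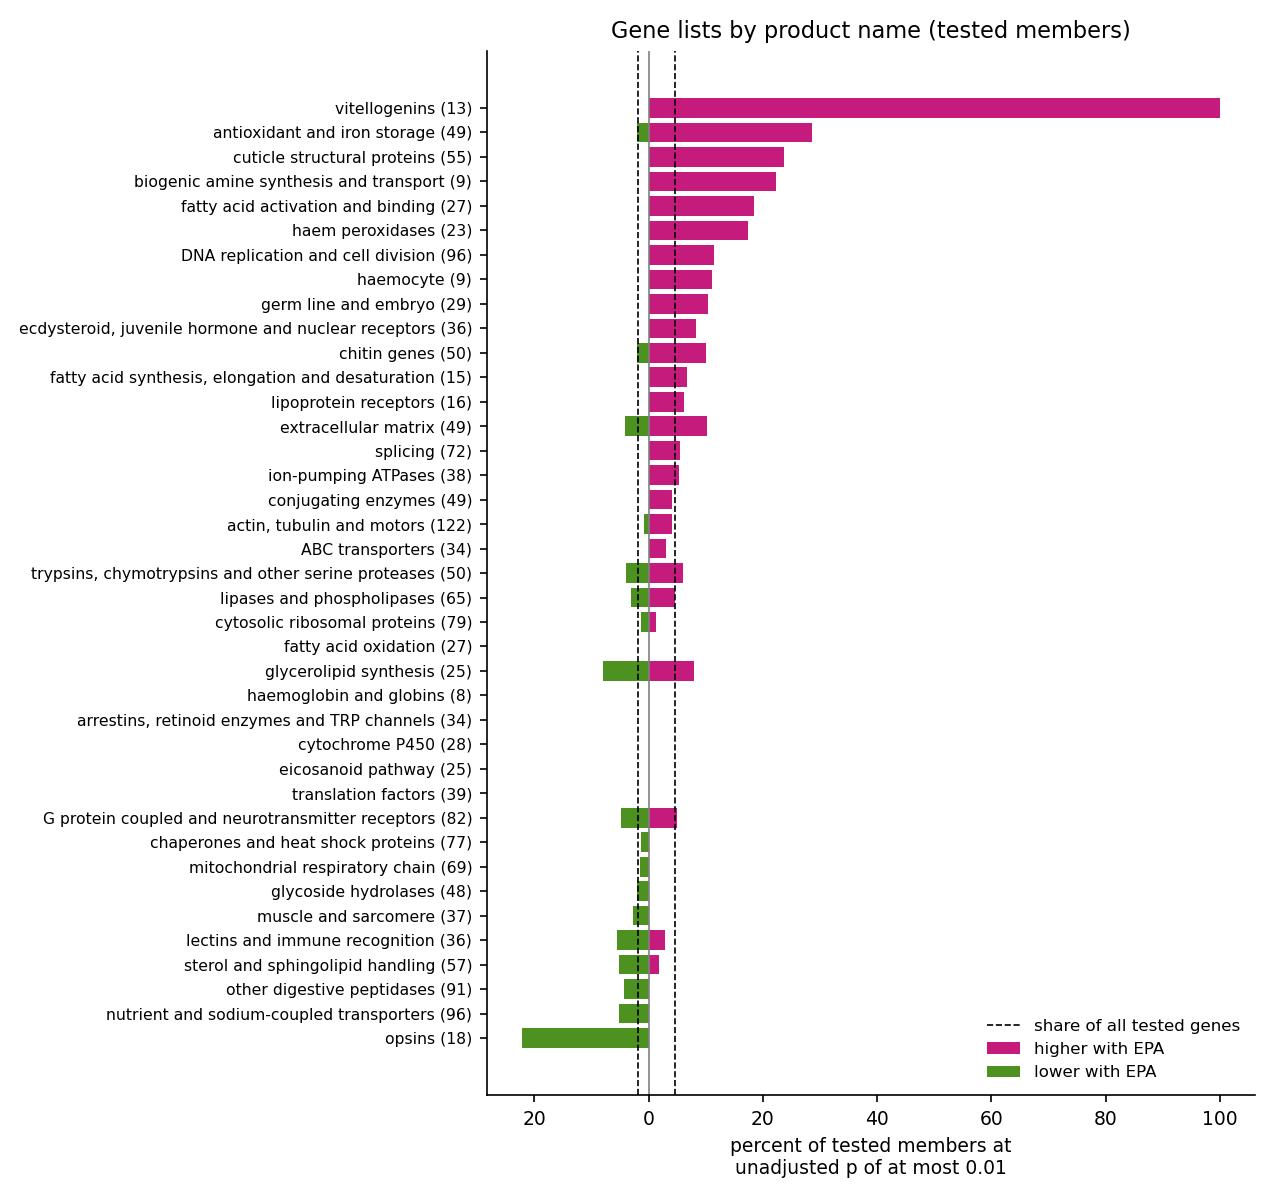
Percent of the tested members (number in brackets) of each product-name list at an unadjusted p of at most 0.01, higher with EPA to the right and lower to the left. Dashed lines mark the shares over all tested genes, 4.68% and 1.79%. All 13 vitellogenins are on the higher side, opsins reach 22.2% on the lower side, and the antioxidant list is high because it holds the 13 vitellogenins fused with superoxide dismutase.

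Opsins, the light receptors of the eye, were nominally lower in 4 of 18 tested genes (22.2%) and higher in none. The shares over all tested genes were 1.79% and 4.68%. The long-wavelength opsin gene KZS10165.1 had the smallest *p* of all genes. Its level was 37.0, 32.5 and 34.3 CPM in GA and 16.5, 13.6 and 16.1 CPM in GA + EPA, a log2 fold change of -1.17 ± 0.10 with an adjusted *p* of 0.0834 in edgeR. The blue opsin gene KZS21495.1 had 38.2, 34.9 and 36.0 against 25.2, 21.9 and 24.9 CPM (-0.60 ± 0.08). The opsin gene KZS05829.1 had 178, 172 and 166 against 138, 109 and 125 CPM (-0.48 ± 0.10), and KZS10162.1, a second long-wavelength opsin on the scaffold of KZS10165.1, had 364, 353 and 322 against 274, 250 and 275 CPM (-0.38 ± 0.08). All 4, which were picked by their *p*, had separate groups and were called by DESeq2. Over all tested genes, 13.2% had every GA + EPA library below GA, and DESeq2 called 0.586% lower. The opsin sum was 2266, 2182 and 2056 CPM in GA and 1881, 1756 and 1905 CPM in GA + EPA, and replicate 1 did not stand apart. Of 34 tested arrestins, retinoid enzymes and TRP channels, which act with opsins in the photoreceptor, none was nominally higher or lower. Some opsin genes are near copies, and 10 of the 18 hold counts shared with other genes, so that the split of reads among them is uncertain.

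Structural proteins of the cuticle, which *Daphnia* renew at each moult, had a median log2 fold change of 0.76. Of 55 tested, 13 were nominally higher (23.6%) and none lower, against 4.68% and 1.79% over all tested genes. The list has 113 genes, and the rest had too few counts to be tested. The cuticle gene KZS20927.1 had 17.6, 7.61 and 20.2 CPM in GA and 42.3, 130 and 79.0 CPM in GA + EPA (2.46 ± 0.50), and its neighbour KZS20928.1 had 12.3, 7.98 and 19.8 against 28.1, 104 and 55.4 CPM (2.23 ± 0.54). KZS12557.1 had 3.27, 1.02 and 7.51 against 20.8, 36.3 and 16.0 CPM (2.61 ± 0.64). KZS06869.1 had the highest log2 fold change of any named gene, 5.40 ± 1.36, on 1.59, 0.75 and 0.227 CPM in GA and 42.6, 64.5 and 1.48 CPM in GA + EPA. There GA + EPA replicate 3 lay close to GA and below its highest value. The list sum did not separate the groups, at 2441, 2260 and 2766 CPM in GA and 2229, 3447 and 3140 CPM in GA + EPA. Without GA + EPA replicate 1, 16 cuticle genes were nominally higher and none lower (5.73% and 3.73% over all genes of that fit). The moult stage of the pools was not given, and its part in these values was not tested.

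Chitin genes were split. Chitin synthase 2 (KZS08010.1), which makes the polymer, had 99.2, 73.4 and 96.9 CPM in GA and 161, 186 and 139 CPM in GA + EPA (0.85 ± 0.16), and a chitin deacetylase gene (KZS21294.1) had 123, 111 and 119 against 170, 202 and 152 CPM (0.57 ± 0.12). Of the 50 tested, 5 were nominally higher (10%) and 1 lower (2%), against 4.68% and 1.79% over all tested genes. The median of the list was -0.22. The sum was 9307, 9974 and 10100 CPM in GA and 3663, 8849 and 10810 CPM in GA + EPA. Replicate 1 of GA + EPA was low here as in the gut lists, and without it the median was -0.03. In that fit 8 were higher and 4 lower (5.73% and 3.73% over all its genes).

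Genes of DNA replication and cell division were nominally higher in 11 of 96 tested (11.5%) and lower in none. The shares over all tested genes were 4.68% and 1.79%. A mitotic cyclin B gene (KZS17744.1) had 1.77, 0.75 and 0.819 CPM in GA and 18.5, 11.1 and 4.10 CPM in GA + EPA (3.32 ± 0.63). The cyclin E gene KZS18365.1, which acts at the start of DNA synthesis, had 31.8, 30.8 and 32.8 against 52.6, 58.7 and 44.1 CPM (0.70 ± 0.11), and cyclin B3 (KZS14567.1) had 130, 119 and 133 against 233, 209 and 172 CPM (0.69 ± 0.12). Aurora borealis (KZS02703.1), a partner of mitotic kinases, stood at 0.88 ± 0.14. In 39 of the 96 every GA + EPA library was above every GA library, and in none below (15.0% and 13.2% over all tested genes). DESeq2 called 6 (1.90% of all genes were called higher). Without GA + EPA replicate 1 the list had 13 nominally higher and 1 lower member (5.73% and 3.73% over all genes of that fit).

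Germ line and embryo genes had 3 of 29 members nominally higher (10.3%) and none lower, against 4.68% and 1.79% over all tested genes. Bicaudal D (KZS03713.1), which moves RNA in the fly oocyte, had 150, 133 and 152 CPM in GA and 300, 219 and 219 CPM in GA + EPA (0.76 ± 0.14). Pumilio (KZS18455.1), a repressor of translation in the fly germ line, had 26.6, 25.4 and 22.2 against 35.1, 38.6 and 35.6 CPM (0.56 ± 0.09). Piwi/Aubergine (KZS20951.1), which silences transposons in the germ line, had 227, 227 and 237 against 334, 348 and 275 CPM (0.47 ± 0.10). In these 3 genes, picked by their *p*, the groups did not overlap. Across the list, every GA + EPA library lay above every GA library in 5 of 29 genes and below in 1 (15.0% and 13.2% over all tested genes). Since the animals carried eggs, embryos and ovary of the pools cannot be told apart.

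Among the genes with the smallest *p* were both genes that the annotation names sestrin, stress-inducible proteins that act on nutrient signalling. Sestrin KZS01477.1 had 31, 27.9 and 33.3 CPM in GA and 70.3, 55.5 and 60.8 CPM in GA + EPA (1.02 ± 0.11), and KZS11975.1 had 16.8, 18.9 and 18.7 against 39.2, 32.7 and 33.2 CPM (0.95 ± 0.10). The adjusted *p* of both was 0.0841 in edgeR. The zinc finger gene AEBP2 (KZS04605.1), a cofactor of a chromatin-silencing complex in mammals, had 25.8, 24.9 and 26.1 against 47.6, 46.7 and 42.4 CPM (0.83 ± 0.07). A WASH complex subunit (KZS11367.1), which serves endosome sorting, had 31, 28.3 and 31.1 against 52.1, 56.3 and 51.4 CPM (0.82 ± 0.07). The kinesin-like motor KZS16716.1 stood at 0.83 ± 0.10 and a tRNA-thiolation gene, KZS16829.1, at 0.85 ± 0.10. All of these had separate groups.

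Signalling genes gave single members in both directions. Of 82 tested G protein-coupled and neurotransmitter receptors, 4 were nominally higher (4.88%) and 4 lower (4.88%). The shares over all tested genes were 4.68% and 1.79%. The receptor KZS22073.1 had 26.1, 29.5 and 27.3 CPM in GA and 64.3, 56.7 and 47.5 CPM in GA + EPA (1.03 ± 0.12). The neuropeptide CCHamide-1 receptor gene KZS20731.1 had 13.3, 11.3 and 13.6 against 31.5, 25.1 and 21.4 CPM (1.03 ± 0.16). Aromatic-L-amino-acid decarboxylase (KZS12909.1), which makes dopamine and serotonin and serves cuticle hardening in insects, had 2.43, 2.41 and 3.41 against 16.2, 14.2 and 5.42 CPM (2.12 ± 0.42). No overlap was seen in these 3 genes.

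Haem peroxidases, a family that includes adhesive and cross-linking enzymes, were nominally higher in 4 of 23 named members (17.4%) and lower in none. The shares over all tested genes were 4.68% and 1.79%. Peroxinectin KZS05807.1, a cell-adhesion protein of crustacean blood cells, had 13.9, 13.5 and 16.7 CPM in GA and 35.6, 37.6 and 25.1 CPM in GA + EPA (1.16 ± 0.17). A wider list by artNOG description, made after values had been seen, had 6 higher (12.5%) and 2 lower (4.17%) of 48. The 2 lower genes are uncharacterized by name. KZS16377.1 had 6.96, 6 and 4.55 against 1.26, 1.52 and 1.31 CPM (-2.09 ± 0.21), and KZS15908.1 had 294, 297 and 223 against 144, 163 and 162 CPM (-0.79 ± 0.13). Both had separate groups.

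Digestive enzymes had nominal members in both directions. Of 91 other digestive peptidases 4 were nominally lower (4.40%) and none higher, and of 48 glycoside hydrolases 1 (2.08%) and none. Of 50 serine proteases 2 were lower (4%) and 3 higher (6%). Over all tested genes the shares were 1.79% lower and 4.68% higher. An alpha-amylase gene (KZS19963.1), for starch digestion, had 21.1, 31.9 and 27.3 CPM in GA and 2.02, 3.91 and 10.5 CPM in GA + EPA (-2.29 ± 0.54). Aminopeptidase N (KZS19947.1) had 19.8, 24.4 and 17.2 against 3.49, 8.38 and 9.36 CPM (-1.53 ± 0.35). A trypsin gene of low level, KZS10600.1, had 7.38, 1.87 and 1.55 against 0.202, 0.102 and 0.219 CPM (-4.33 ± 0.87). In the opposite direction, the clip-domain serine protease KZR98511.1, of a family known in arthropods for immune and developmental cascades, had 0.654, 1.87 and 1.18 against 9.35, 6.91 and 10.9 CPM (2.88 ± 0.36). The amylase and aminopeptidase were lowest in GA + EPA replicate 1, yet replicates 2 and 3 were also below GA. Without replicate 1 the counts turned to 4 higher and 8 lower peptidases, 3 and 2 glycoside hydrolases, and 7 and 4 serine proteases. Over all genes of that fit 5.73% were higher and 3.73% lower.

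Nutrient and sodium-coupled transporters had 5 of 96 tested members nominally lower (5.21%) and none higher, against 1.79% and 4.68% over all tested genes. The chloride cotransporter gene KZS14067.1 had 51.7, 54.0 and 48.2 CPM in GA and 22.9, 31.7 and 30.0 CPM in GA + EPA (-0.86 ± 0.13). A related gene, KZS05543.1, stood at -0.53 ± 0.10. The peptide transporter gene KZS03060.1 (solute carrier family 15 member 2) had 11.4, 10.9 and 11.1 against 6.37, 6.25 and 6.78 CPM (-0.78 ± 0.10). The groups were apart in each. Without GA + EPA replicate 1 the list had 12 lower members and 1 higher (3.73% and 5.73% over all genes of that fit).

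Cytosolic ribosomal proteins showed a small difference spread over many genes. They summed to 76512, 76918 and 75640 CPM in GA and to 72551, 66099 and 64687 CPM in GA + EPA, a ratio of means of 0.888. In 53 of 79 tested genes all GA + EPA libraries lay below all GA libraries, and in 1 above (13.2% and 15.0% over all tested genes), although only 1 was nominally lower and 1 higher. The median log2 fold change was -0.17. GA + EPA replicate 1 lay nearest to GA, and without it 51 genes were nominally lower (3.73% over all genes of that fit), none higher, with a median of -0.23. CPM are shares of a total and do not give absolute amounts. Genes named glyceraldehyde-3-phosphate dehydrogenase and succinate dehydrogenase, metabolic enzymes often used as reference genes, had medians of -0.06 each over 2 and 4 tested members. The succinate dehydrogenase genes nevertheless summed to 611, 614 and 614 CPM in GA and to 536, 548 and 563 CPM in GA + EPA, a ratio of 0.896 with separate groups, and 1 of the 4 was nominally lower. The accessions that the study's methods list as reference genes only partly carry these product names. Of those, 3 of 7 listed for the former enzyme were tested (median 0.31, with 2 of the 3 apart and higher with EPA) and 5 of 5 for the latter (median -0.04, with 1 apart and lower), and none was nominally higher or lower.

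Genes without an informative name were also among the highest and lowest. KZS16942.1 had 1.54, 0.375 and 1.14 CPM in GA and 43.2, 71.2 and 3.45 CPM in GA + EPA (5.24 ± 1.14), and KZS17781.1 had 5.14, 2.62 and 3.91 against 91.3, 118 and 7.11 CPM (4.21 ± 0.98). In both, GA + EPA replicate 3 lay far below replicates 1 and 2. KZS06900.1 had 2.05, 0.643 and 2.82 against 51.2, 21.1 and 11.7 CPM (3.90 ± 0.70). On the other side, KZS13674.1 had 111, 144 and 204 against 11.4, 39.5 and 45.1 CPM (-2.26 ± 0.51), and the neighbours KZS16078.1 and KZS16079.1 stood at -2.42 ± 0.44 and -2.40 ± 0.60. What these proteins do is not annotated in the files.

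On the cyanobacterium diet fewer genes reached the nominal threshold. The study supplemented this food with cholesterol and alpha-linolenic acid, so that basal food and these supplements cannot be told apart. In CY + EPA against CY, edgeR called none of 14162 genes (0.00%), and 45 were at an unadjusted *p* of at most 0.01 (0.318%), 32 higher (0.226%) and 13 lower (0.0918%). Of the 672 genes nominally higher on GA, 665 were tested on CY, and 189 of these had a log2 fold change above 0 there (28.4%, against 44.2% of the 13940 genes tested on both diets). Of 251 nominally lower genes, 120 were below 0 on CY (47.8%). This was a smaller share than over the genes tested on both diets, whose median log2 fold change on CY was -0.02. These shares describe genes picked by their GA values. The difference between the EPA responses on GA and on CY was itself tested over 12 libraries. No gene of 14816 was called by edgeR (0.00%), 431 were at an unadjusted *p* of at most 0.01 (2.91%), and DESeq2 called 39 (0.264%).

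The 5 genes with an adjusted *p* of at most 0.10 for this difference, 0.0784 in edgeR for each, were looked up after the test. They were sestrin KZS01477.1, the cotransporter gene KZS14067.1, the haem peroxidase-like gene KZS15908.1, the uncharacterized KZS21043.1 and a protein kinase C gene, KZS11766.1. On a common scaling of all 15 libraries, sestrin KZS01477.1 had 29.0, 26.2 and 31.1 CPM in GA, 66.9, 51.2 and 56.4 in GA + EPA, 35.5, 37.7 and 44.9 in CY and 32.5, 36.0 and 30.7 in CY + EPA. The EPA effect on the log2 scale was 1.02 ± 0.11 with GA and -0.26 ± 0.11 with CY. KZS14067.1 had 48.5, 50.8 and 45.0 CPM in GA, 21.8, 29.2 and 27.8 in GA + EPA, 29.2, 23.4 and 29.1 in CY and 35, 35.5 and 36.3 in CY + EPA. For this gene the libraries with and without EPA were apart on both diets, in opposite directions.

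Against the other diets, the yolk genes of GA animals were low. On the 15-library scaling the 13 vitellogenin models summed to 8500, 14046 and 12854 CPM in GA, to 45524, 25779 and 23703 CPM in GA + EPA, to 147870, 67611 and 89927 CPM in CY, to 96044, 75865 and 87375 CPM in CY + EPA and to 96002, 109940 and 78598 CPM in CRY. GA + EPA lay above all GA libraries and below all libraries of the other 3 groups, which overlapped one another. With EPA on CY the median log2 fold change of the 13 was -0.24, and the unadjusted *p* for the difference between diets was 0.0015 to 0.011 (at most 0.01 in 11 of 13).

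The elongase gene KZS16038.1 had means of 149 ± 6.49 CPM in GA, 214 ± 18.3 in GA + EPA, 309 ± 20.4 in CY, 295 ± 7.54 in CY + EPA and 244 ± 25.3 in CRY (SD, *n* = 3). CY and CY + EPA did not differ beyond their spread. The opsin KZS10165.1 was highest in GA, at 32.4 ± 2.07 CPM in GA, followed by 14.4 ± 1.69 in GA + EPA, 7.46 ± 1.13 in CY + EPA, 6.75 ± 3.35 in CY and 2.63 ± 0.287 in CRY. In both genes the GA + EPA mean lay between that of GA and those of the other groups, though the elongase values of GA + EPA and CRY overlapped. Sestrin KZS01477.1 was different, with 58.2 ± 8.04 CPM in GA + EPA and 28.8 ± 2.43, 39.4 ± 4.90, 33.1 ± 2.69 and 31 ± 1.46 in GA, CY, CY + EPA and CRY. These 3 genes were taken as examples after their values were seen.

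**Figure D5:**
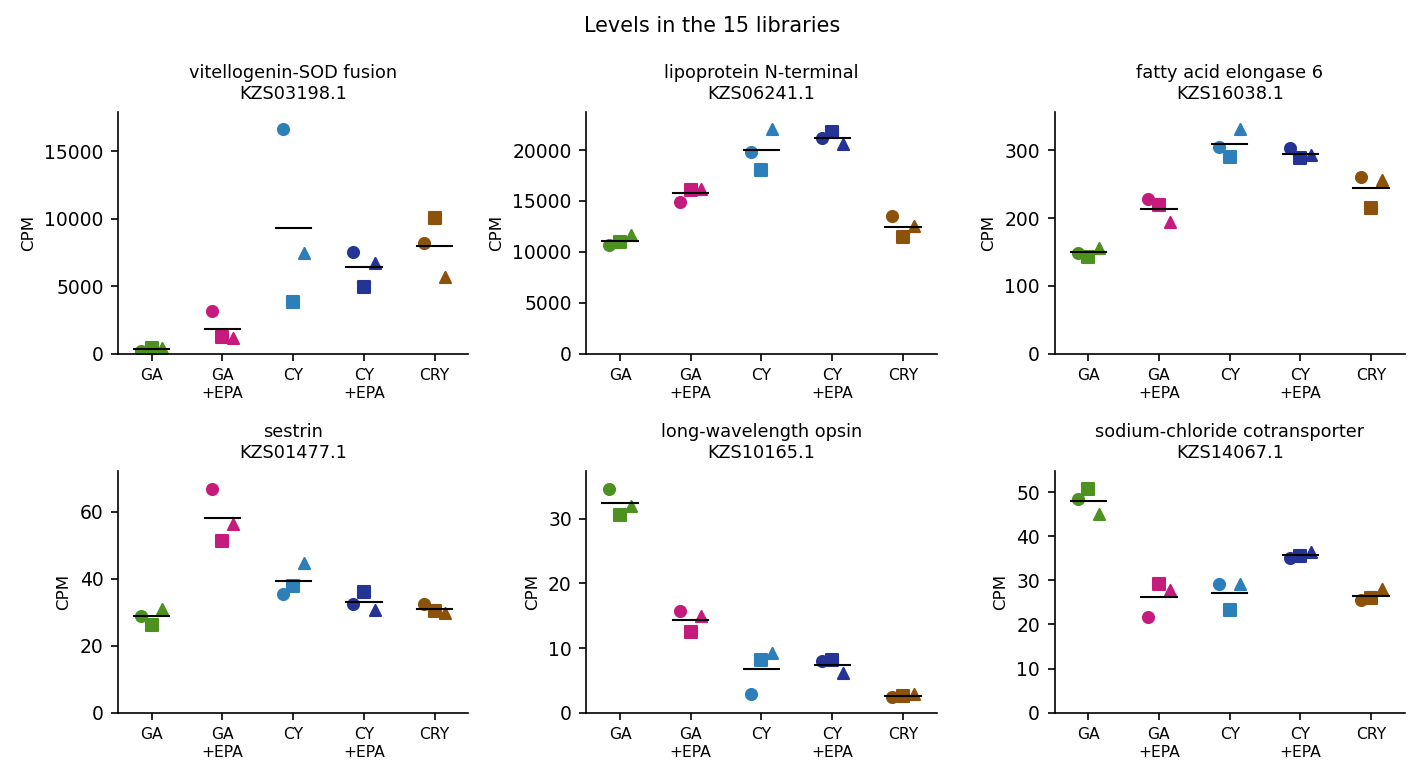
CPM on the 15-library scaling for 6 genes in the 3 libraries of each group, with a line at the group mean. The group means of the vitellogenin, lipoprotein-like and elongase genes are ordered GA, GA + EPA, CY from low to high, the opsin gene has its highest values in GA, and sestrin is highest in GA + EPA (51.2 to 66.9 CPM).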

How the data were processed

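RNA of whole-animal pools was sequenced as messenger RNA libraries in paired-end mode. The authors trimmed the reads (Trimmomatic), mapped each library on its own to the *D. magna* reference with bowtie2 and deposited expected counts and FPKM per gene from RSEM 1.2.31, in which reads shared between genes are split. The deposited expected counts were rounded to whole numbers here, and 12.5% of them were not whole. FPKM deposited by the authors entered only 2 alternatives, as log2(FPKM + 0.1) and log2(FPKM + 1), and TPM was not used. The authors' annotation file gives scaffold positions, product names and artNOG groups. None of its identifiers matched the RefSeq gene table (0), and no sequence is shown. There were 0 per-sample columns of unknown origin.

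Of 26646 genes listed, 14353 passed filterByExpr over the 6 libraries. They were tested with edgeR 4.0.16 (TMM, quasi-likelihood, Benjamini-Hochberg over all tested genes, R 4.3.3). The limit of the adjusted *p* for a call was 0.01. The study gave 0.01 as the level of a two-way ANOVA on FPKM with EPA and temperature as factors, naming no adjustment there, so the criteria differ. Errors after log2 fold changes are standard errors of the edgeR fit. The biological coefficient of variation was 0.189. An exact permutation test of 3 against 3 cannot go below 0.1 and was not used. The EPA response on GA was compared with that on CY as an interaction over 12 libraries. On counts simulated for this comparison over 14353 genes, 27 of 100 genes changed 2-fold and 90 of 100 changed 4-fold were called, with 2 false calls. The simulated libraries were drawn independently from the fitted spread, with none standing apart, and changes were placed only in genes above 1 CPM. These shares may therefore not hold for the real libraries, where GA + EPA replicate 1 stood apart. Alternatives were DESeq2 1.42.0, RLE scaling, other filters, all 15 libraries in one fit, a replicate block, limma 3.58.1 on FPKM and each library left out.

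Genes were named by rule: accessions that the study's methods name, the 15 highest and 15 lowest log2 fold changes with an informative product name and the 5 highest and 5 lowest without one (mean of at least 1 CPM, unadjusted *p* of at most 0.01, groups not overlapping), the 10 smallest *p* values, and up to 4 members with the smallest *p* in each of 42 product-name lists. Members, lists and rules were chosen with earlier results of these data known. The artNOG lists, further list members, KZS05160.1, KZS21037.1 and the interaction genes were taken after values were seen. The study's methods describe replicate vessels for each condition, but neither they nor the labels say from which vessel each sequenced pool came, so that *p* values measure the spread between these pools, which may be technical. Sequencing lane and RNA quality of single libraries were not used here.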

Additional observations from a re-analysis of the deposited data

How the results depend on the processing

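The number of genes called in GA + EPA against GA depended on the tool and the threshold. It was 0 with edgeR at an adjusted *p* of 0.01, 68 at 0.10, and 356 with DESeq2, and the cause of the difference between tools was not tested. With each library left out, 0 to 1 genes were called and 401 to 1382 genes were at an unadjusted *p* of at most 0.01, 308 to 869 higher and 93 to 545 lower. Those fits leave 1 group with 2 libraries and have fewer degrees of freedom. With limma on log2(FPKM + 0.1) and log2(FPKM + 1), 427 and 425 genes were nominally higher. Counts with RLE scaling, without a filter, with at least 10 counts in every library, and with all 15 libraries stayed within 1.5 times. For the difference between the EPA responses on GA and CY, DESeq2 called 39 genes and edgeR 0. Of the 176 genes whose log2 fold changes were followed, none changed direction under the settings that gave them a value (165 of them with at least 10 counts in every library, all 176 elsewhere), and DESeq2 called 114 of them. Most of the 176 had been picked by their unadjusted *p* in the same libraries, so both results follow largely from that choice. Medians of lists near 0, among them glycerolipid synthesis, serine proteases, lectins and globins, changed sign under at least 1 setting.

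With replicate number as a block, 561 genes were at an unadjusted *p* of at most 0.01, 407 higher and 154 lower, and 0 were called. The correlations of same-numbered deviations from the group means were 0.20, -0.11 and 0.06. Replicate 1 of GA + EPA correlated best with its own number, whereas replicates 2 and 3 did not. Deviations from the mean of a group of 3 are not independent of one another, so these correlations cannot decide whether the numbers pair the samples. At this depth, 12293 listed genes had too few counts to be tested.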

Other observations

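Further gene groups are set here beside the shares over all tested genes, 4.68% nominally higher and 1.79% lower. Of 49 tested extracellular matrix genes 5 were nominally higher with EPA (10.2%) and 2 lower (4.08%). The collagen genes KZS05104.1 and KZS07992.1, of the fibrous scaffold around tissues, had 1853, 1539 and 1854 CPM in GA against 2311, 2797 and 2449 CPM in GA + EPA, and 523, 440 and 519 against 624, 752 and 658 CPM. Their groups did not overlap, and the log2 fold changes were 0.53 ± 0.12 and 0.46 ± 0.11. Of 72 splicing genes 4 were nominally higher (5.56%) and none lower, all by small amounts (log2 fold changes of 0.27 to 0.45). Muscle genes had 1 nominally lower member of 37, troponin I (KZS00815.1), with 83.0, 80.1 and 73.5 CPM in GA against 55.2, 63.9 and 64.5 CPM in GA + EPA (-0.37 ± 0.09).

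Haemoglobin and other globins, the oxygen carriers of *Daphnia* blood and their relatives, had no nominal member among 8 tested. Their sum was 509, 667 and 982 CPM in GA and 1097, 1458 and 1101 CPM in GA + EPA, so that the groups did not overlap although the GA libraries differed widely from each other. Of 69 tested respiratory chain genes none was nominally higher and 1 lower, the succinate dehydrogenase gene KZS17456.1, with 347, 340 and 340 against 276, 290 and 299 CPM (-0.25 ± 0.07).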
